A study of Mus musculus with 10 samples.

Results

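Lipoprotein lipase and 8 genes that act with it in delivering fatty acids to the heart were followed in whole mouse hearts exposed to lipopolysaccharide (LPS), an endotoxin from the outer membrane of Gram-negative bacteria. The 9 genes were taken by name, out of 30074 genes measured, as Lpl, Angptl4, Gpihbp1, Lmf1, Vldlr, Cd36, Fabp3, Fabp4 and Slc27a1. All 9 were in the table and all 9 passed the filter on low values, which asked for 0.5 FPKM or more on average over the 10 libraries (FPKM are fragments or reads per kilobase of gene, scaled to the reads of the library). The hearts came from wild-type C57BL/6 males, 8 to 12 weeks of age and close to 25 g in weight, and all had received LPS by intraperitoneal injection as a model of septic cardiomyopathy. Of these, 5 hearts were from mice that also received artesunate, an endoperoxide antimalarial drug, intraperitoneally at 50 mg/kg, with a first dose 10 min before LPS and a second 4 h after it (LPS+ART). The other 5 hearts were from mice given LPS and vehicle (LPS+Vehicle). Cardiac function was assessed 24 h after LPS. No separate time is given for the RNA samples, and hearts without LPS were not analysed here, so no level below has an unstimulated baseline.

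The heart takes most of its energy from fatty acids, and much of that supply arrives as triglyceride inside lipoproteins. Lipoprotein lipase is made by cardiomyocytes, folded in the endoplasmic reticulum with the help of LMF1, and carried by the endothelial protein GPIHBP1 to the capillary wall, where it cuts triglyceride. ANGPTL4 inactivates the enzyme. The VLDL receptor binds triglyceride-rich lipoproteins. The freed fatty acids enter cells with the help of CD36 and of FATP1, the product of Slc27a1, and travel inside them on FABP3 in cardiomyocytes and on FABP4 in capillary endothelial cells and adipocytes.

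Of the 9 genes, Angptl4 rose in LPS+ART and Gpihbp1, Vldlr, Cd36 and Slc27a1 fell, while Lpl, Lmf1, Fabp3 and Fabp4 did not pass the test. The test was limma-trend on log2(FPKM + 1), with Benjamini-Hochberg adjusted p under 0.05 over 13314 genes. Over all genes tested, 11.8% were called higher and 52.9% lower, so that 1 higher and 4 lower among 9 genes are close to the shares of the whole table. The median log2 fold change was -0.14 for the 9 genes and -0.27 for all genes tested. After median-ratio scaling, which brings the median of all genes to 0.02, 1 of the 9 genes was called higher (Angptl4) and 2 lower (Vldlr and Slc27a1), against 30.1% of all genes in each direction. The calls of Gpihbp1 and Cd36 thus held for the values as deposited and not after this scaling. In 4 of the 9 genes every LPS+ART heart was below every LPS+Vehicle heart, and in 0 was every one above. Over all genes tested these shares were 42.5% and 7.54%.

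Several libraries stood apart within their groups. LPS+Vehicle replicates 2 and 5 were nearly alike, since their recovered reads gave a chi-square of 1.68 for each degree of freedom across 15643 genes, whereas the other pairs within a group gave 12.4 to 43.4. The labels do not say whether these 2 come from separate mice. They count as 2 of the 5 vehicle hearts in the main fit and in each SD. If they share an animal, the vehicle spread is understated there. Averaging these 2 libraries as 1 replicate left 1 of the 9 genes higher and 4 lower. Transcripts of atrial muscle (Sln, Myl7 and Myl4) summed to 88.1 FPKM in LPS+ART replicate 5 and to 27.4 and 25.0 FPKM in LPS+Vehicle replicates 2 and 5, and to 0.645 FPKM or less elsewhere. Without those 3 libraries, 1 of the 9 genes was higher and 4 were lower, and the log2 fold change of Angptl4 was 1.26 (limma adjusted p = 0.0318). Markers of neutrophils summed to 231 and 120 FPKM in LPS+ART replicates 3 and 4 and to at most 64.8 FPKM elsewhere, and leaving those 2 libraries out also gave 1 higher and 4 lower. In each of these 3 settings the genes called were Angptl4, Gpihbp1, Vldlr, Cd36 and Slc27a1. Summed over 10 genes, markers of cardiomyocytes, the muscle cells of the labelled tissue, ranged from 12758 to 15282 FPKM in LPS+ART hearts and from 11022 to 12073 FPKM in vehicle hearts.

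Promoter sequences in RefSeq (GRCm38.p6) were matched for 5 of the 9 genes. Those of Cd36, Vldlr and Slc27a1 are shown because these 3 uptake genes were called lower as deposited, Cd36 not after median-ratio scaling. Each runs 5′ to 3′ along its gene, from 250 bases before the annotated start to 50 after it, and for Vldlr and Slc27a1 the first of several windows is given. The Cd36 window is chr5:17835847-17836146 on the minus strand, the Vldlr window chr19:27216234-27216533 and the Slc27a1 window chr8:71568621-71568920, both on the plus strand. Capitals mark a match to AGGTCA, the half-site letters to which nuclear receptors such as PPARs and RXRs are known to bind.
Cd36: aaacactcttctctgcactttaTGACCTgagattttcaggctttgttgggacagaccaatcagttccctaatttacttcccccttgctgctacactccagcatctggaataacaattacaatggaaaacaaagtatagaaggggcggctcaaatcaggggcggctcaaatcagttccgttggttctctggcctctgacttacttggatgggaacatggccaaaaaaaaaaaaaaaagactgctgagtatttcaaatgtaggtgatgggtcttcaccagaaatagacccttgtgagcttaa
Vldlr: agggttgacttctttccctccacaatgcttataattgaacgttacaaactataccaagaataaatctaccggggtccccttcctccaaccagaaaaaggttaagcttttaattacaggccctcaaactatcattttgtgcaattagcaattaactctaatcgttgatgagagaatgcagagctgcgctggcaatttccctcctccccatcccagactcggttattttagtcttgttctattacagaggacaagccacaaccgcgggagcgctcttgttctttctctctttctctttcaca
Slc27a1: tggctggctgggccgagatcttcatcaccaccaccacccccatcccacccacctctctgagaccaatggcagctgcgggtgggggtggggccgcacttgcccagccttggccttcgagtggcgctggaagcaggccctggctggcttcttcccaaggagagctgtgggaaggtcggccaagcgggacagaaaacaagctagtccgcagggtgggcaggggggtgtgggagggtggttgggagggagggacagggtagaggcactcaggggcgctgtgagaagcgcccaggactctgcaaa

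Both strands were searched for AGGTCA, for a relaxed DR1 repeat of that half-site, for ACGTG (the core of a hypoxia response element), for a relaxed κB outline (G and C ends with free bases between them) and for TATAAA. The Cd36 window held AGGTCA once, on the opposite strand at position -228 from the start, and the κB outline once at -203. The first Slc27a1 window held only the κB outline, at -168, and the second held none of the 5 motifs. The third held ACGTG at -202 and -201, which are the 2 strands of 1 palindrome (CACGTG), and the κB outline at -48 and -17. The motifs given for Slc27a1 thus depend on which annotated start is taken. Neither Vldlr window held any of them. The windows of Fabp3 and Lmf1, which were not called, held the κB outline 4 and 3 times and no other of these motifs, so the outline is not particular to genes that fell. Of 32851 mouse promoter windows of this length, 16.3% held AGGTCA, 0.381% the DR1 repeat, 19.6% ACGTG, 50.8% the κB outline and 13.6% TATAAA. A match of letters is a description and not a site of binding, and no binding was measured in these hearts. No promoter sequence is shown for Lpl, Angptl4, Gpihbp1 or Fabp4.

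Lpl (ENSMUSG00000015568, chromosome 8) encodes lipoprotein lipase itself. Its level was 466, 465, 666, 519 and 480 FPKM in LPS+ART replicates 1 to 5 and 601, 439, 582, 584 and 403 FPKM in LPS+Vehicle replicates 1 to 5. The groups overlapped, and the highest heart of all was LPS+ART replicate 3. The means were 519 ± 84.9 and 522 ± 93.2 FPKM (SD, n = 5 each), which placed Lpl 50th among all genes by mean level. On the log2 scale the difference was -0.00 (SE 0.14, 95% interval -0.31 to 0.30, limma adjusted p = 0.993). It was 0.39 after median-ratio scaling (limma adjusted p = 0.0570), so the sign of a difference in Lpl is not settled by these values. This transcript level says nothing of the amount or activity of the enzyme, which is controlled largely after transcription.

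Angptl4 (ENSMUSG00000002289, chromosome 17), which encodes the secreted inhibitor that unfolds lipoprotein lipase, stood at 50.9, 34.3, 40.4, 35.7 and 80.1 FPKM in LPS+ART replicates 1 to 5. In LPS+Vehicle replicates 1 to 5 it stood at 10.4, 12.2, 9.99, 39.0 and 12.5 FPKM. All 5 LPS+ART hearts were above 4 of the 5 LPS+Vehicle hearts, and LPS+Vehicle replicate 4 lay inside the LPS+ART range. Mean levels were 48.3 ± 18.9 and 16.8 ± 12.5 FPKM (SD, n = 5 each), 2.87-fold higher with artesunate. This is a log2 fold change of 1.60 (SE 0.35, limma adjusted p = 0.00179), which was 1.97 after median-ratio scaling. Leaving out 1 library at a time gave 1.40 to 1.94, the highest without LPS+Vehicle replicate 4. That vehicle heart was also the highest of its group in Pdk4, the kinase that restrains pyruvate oxidation and, like Angptl4, a known target of PPARs: 949 FPKM against 364 to 372 in the other LPS+Vehicle hearts and 1920 to 2628 in LPS+ART.

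Gpihbp1 (ENSMUSG00000022579, chromosome 15) encodes the endothelial anchor that moves lipoprotein lipase to the capillary lumen. Its level was 22.2, 23.4, 22.1, 24.4 and 33.6 FPKM in LPS+ART replicates 1 to 5 and 39.6, 37.8, 36.3, 36.8 and 36.4 FPKM in LPS+Vehicle replicates 1 to 5. The groups did not overlap, the vehicle hearts lay close together, and LPS+ART replicate 5 was nearest to them. The means of 25.1 ± 4.80 and 37.4 ± 1.40 FPKM (SD, n = 5 each) differed 1.49-fold. As a log2 fold change this was -0.57 (SE 0.11, limma adjusted p = 6.1e-04). It was -0.19 after median-ratio scaling (limma adjusted p = 0.120) and -0.40 with the trend with expression level removed by cyclic loess (limma adjusted p = 0.00573), so the call rests on how the libraries are scaled.

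Lmf1 (ENSMUSG00000002279, chromosome 17), whose protein lets newly made lipase fold into its active dimer, was by far the lowest of the 9 genes. LPS+ART hearts ranged from 0.645 to 0.805 FPKM with a median of 0.739, and LPS+Vehicle hearts from 0.707 to 1.07 with a median of 0.904, so that the groups overlapped through LPS+Vehicle replicate 4. The means were 0.726 ± 0.0623 and 0.907 ± 0.131 FPKM (SD, n = 5 each), from 274 to 785 reads per library. The log2 fold change was -0.14 (SE 0.07, limma adjusted p = 0.0900), on a scale that compresses changes of genes near 1 FPKM. It passed the threshold without LPS+Vehicle replicate 4 (-0.18, limma adjusted p = 0.0275) and with limma-voom on recovered reads (-0.33, limma adjusted p = 0.0350), and had the opposite sign after median-ratio scaling (0.038) and cyclic loess (0.12).

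Vldlr (ENSMUSG00000024924, chromosome 19) encodes a lipoprotein receptor that holds triglyceride-rich particles at the cell surface. LPS+ART hearts stood at 15.7, 12.2, 16.2, 14.7 and 12.6 FPKM and LPS+Vehicle hearts at 29.2, 21.6, 34.4, 24.2 and 21.6 FPKM, in order of replicate number. The groups did not overlap. The means were 14.3 ± 1.80 and 26.2 ± 5.53 FPKM (SD, n = 5 each), 1.83-fold lower with artesunate. The fall on the log2 scale, -0.82 (SE 0.13, limma adjusted p = 2.7e-04), was called after median-ratio scaling too (-0.44, limma adjusted p = 0.0204).

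**Figure D1:**
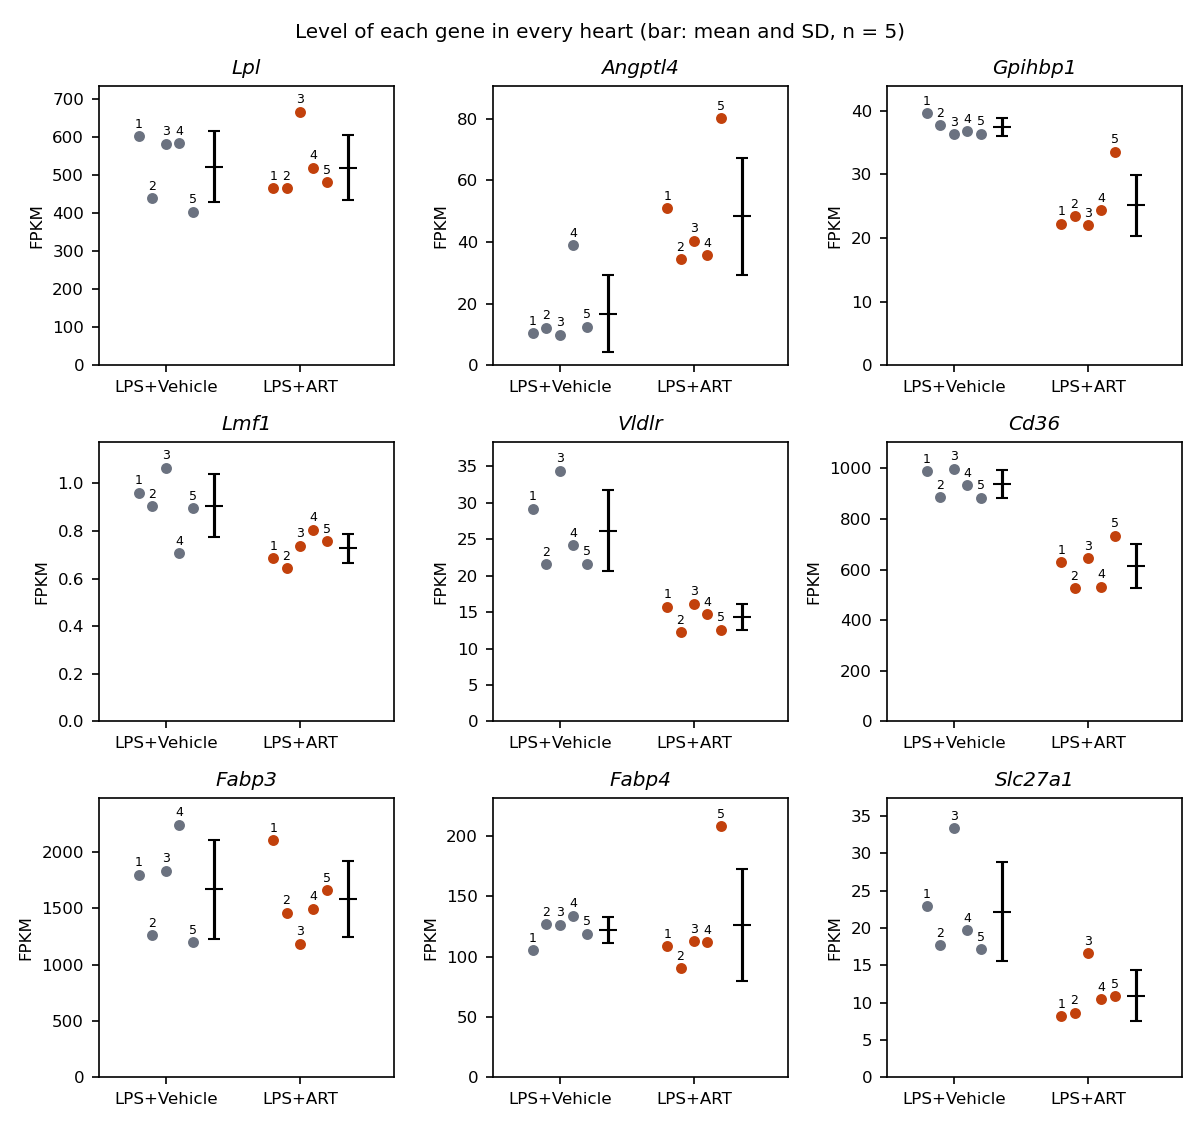
FPKM of each of the 9 genes in every heart, with LPS+Vehicle at the left and LPS+ART at the right of each panel; points carry the replicate number and bars show the mean and SD of 5 hearts. Angptl4 is higher in LPS+ART except that vehicle replicate 4 reaches 39.0 FPKM, Gpihbp1, Vldlr, Cd36 and Slc27a1 are lower with no overlap, and the other panels overlap.

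Cd36 (ENSMUSG00000002944, chromosome 5), the main fatty acid translocase of the heart, stood at 629, 525, 645, 532 and 734 FPKM in LPS+ART replicates 1 to 5 and at 988, 885, 998, 934 and 884 FPKM in LPS+Vehicle replicates 1 to 5. Every LPS+ART heart was below every LPS+Vehicle heart. The means of 613 ± 86.8 and 938 ± 54.6 FPKM (SD, n = 5 each) differed 1.53-fold, and by mean level the gene ranked 39th of all. Its log2 fold change was -0.62 (SE 0.10, limma adjusted p = 1.85e-04). The value was -0.23 after median-ratio scaling (limma adjusted p = 0.0542) and -0.80 after cyclic loess (limma adjusted p = 8.1e-05).

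Slc27a1 (ENSMUSG00000031808, chromosome 8) encodes FATP1, a transport protein that also joins fatty acids to coenzyme A. Its level was 8.21, 8.65, 16.6, 10.4 and 10.9 FPKM in LPS+ART replicates 1 to 5 and 22.9, 17.7, 33.3, 19.7 and 17.2 FPKM in LPS+Vehicle replicates 1 to 5. The groups did not overlap, although LPS+ART replicate 3 came close to the lowest vehicle heart. Replicate 3 was the highest heart of each group. Same-numbered libraries deviated little together over all genes, and whether the numbers pair the samples is not known. With the replicate number as a block, the SE of the log2 fold change of Slc27a1 was 0.11 in place of 0.20. The means were 11.0 ± 3.37 and 22.2 ± 6.63 FPKM (SD, n = 5 each), 2.02-fold lower with artesunate. The log2 fold change of -0.95 (SE 0.20, limma adjusted p = 0.00156) was the most negative among the 9 genes for the values as deposited. It was -0.58 after median-ratio scaling (limma adjusted p = 0.0363), and in that scaling the call was lost without LPS+Vehicle replicate 4 (-0.59, limma adjusted p = 0.0566).

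Fabp3 (ENSMUSG00000028773, chromosome 4), the cytosolic fatty acid carrier of cardiomyocytes, had the highest mean FPKM of the 9 genes and ranked 17th of all genes. It ranged from 1189 to 2103 FPKM in LPS+ART, with a median of 1497, and from 1202 to 2244 FPKM in LPS+Vehicle, with a median of 1801. The groups spanned nearly the same range. Fabp3 had a log2 fold change of -0.06 (SE 0.19, 95% interval -0.48 to 0.36, limma adjusted p = 0.794), an interval wide enough to hold a moderate change either way. The processed pseudogene Fabp3-ps1 is listed at a mean of 50.5 FPKM, and reads may be shared between the copies. Fabp3 also overlaps Gm10570 and Zcchc17 on the opposite strand, at mean levels of 0.381 and 3.14 FPKM, and the strand setting of the counting is not known.

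Fabp4 (ENSMUSG00000062515, chromosome 3), the carrier of capillary endothelial cells and adipocytes, stood at 109, 90.2, 113, 112 and 208 FPKM in LPS+ART replicates 1 to 5 and at 105, 127, 126, 134 and 119 FPKM in LPS+Vehicle replicates 1 to 5. LPS+ART replicate 5 was above all other hearts, and of the remaining LPS+ART hearts 3 lay within the vehicle range and 1 below it. The means were 126 ± 46.5 and 122 ± 10.8 FPKM (SD, n = 5 each). Fabp4 had a log2 fold change of -0.01 (SE 0.18, 95% interval -0.42 to 0.39, limma adjusted p = 0.958), and without LPS+ART replicate 5 it was -0.21 (limma adjusted p = 0.0800). Of 10 adipocyte markers, 9 were in the table, and their sum ranged from 11.0 to 16.5 FPKM in artesunate hearts and from 15.9 to 23.5 in vehicle hearts. Nearly all of that sum was Cidea, a lipid droplet protein and the only one to pass the filter, at 13.6 ± 2.27 FPKM against 19.0 ± 3.85 (SD, n = 5 each, limma adjusted p = 0.0177, and 0.679 after median-ratio scaling). Cfd reached 2.19 FPKM in 1 heart, and Adipoq and Plin1, which define adipocytes, were at most 0.0849 and 0.0259 FPKM in any heart. The part of adipocytes in the level of Fabp4 was not tested.

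**Figure D2:**
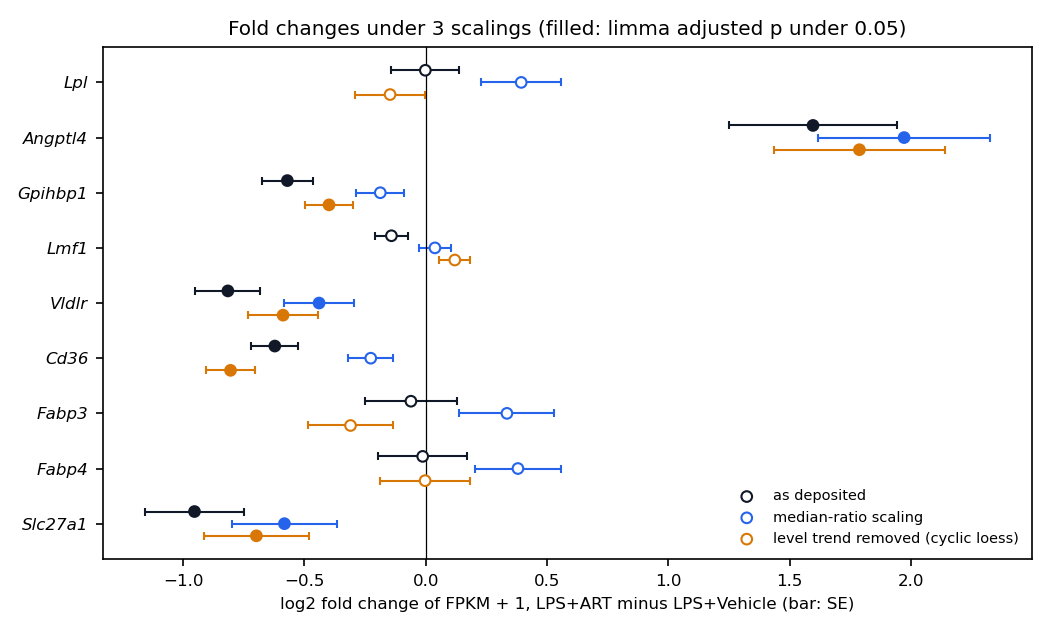
Log2 fold change of FPKM + 1, LPS+ART minus LPS+Vehicle, for the 9 genes under 3 scalings: as deposited, after median-ratio scaling and after cyclic loess. Bars are standard errors and filled points have a limma adjusted p under 0.05. Angptl4, Vldlr and Slc27a1 keep their calls in all 3, whereas Gpihbp1 and Cd36 lose theirs after median-ratio scaling, at -0.19 and -0.23.

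FPKM is a level per length of gene, and on that scale the 9 genes are set against each other within a heart. The length is that of all annotated exons of a gene merged, from 823 bases for Fabp3 to 13589 for Lmf1, with 4489 for Fabp4. It can exceed the length of the transcripts made in the heart. An order or a ratio between genes therefore rests on these lengths as well, and is not a measure of molecules. In LPS+Vehicle the order by mean FPKM was Fabp3, Cd36, Lpl, Fabp4, Gpihbp1, Vldlr, Slc27a1, Angptl4 and Lmf1. The ranges of Vldlr and Slc27a1, and of Slc27a1 and Angptl4, overlapped there. In LPS+ART the order was Fabp3, Cd36, Lpl, Fabp4, Angptl4, Gpihbp1, Vldlr, Slc27a1 and Lmf1, with overlap between Cd36 and Lpl and between Vldlr and Slc27a1. Angptl4 thus stood 8th in the vehicle hearts and 5th in the artesunate hearts, where its range no longer overlapped that of Gpihbp1.

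Ratios of levels within a heart do not depend on a scale factor shared by all genes of a library, and are given as descriptions. For each 100 FPKM of Lpl there were 9.58 ± 4.38 FPKM of its inhibitor Angptl4 with artesunate and 3.20 ± 2.04 with vehicle (SD, n = 5 each). The 2 sets of hearts overlapped, from 6.06 to 16.7 and from 1.72 to 6.67, through LPS+Vehicle replicate 4. For each 100 FPKM of Lpl there were 4.96 ± 1.32 FPKM of its carrier Gpihbp1 with artesunate and 7.35 ± 1.35 with vehicle, again with overlap. The receptor Vldlr gave 2.43 to 3.38 FPKM for each 100 of Lpl with artesunate and 4.14 to 5.91 with vehicle, with no overlap. Fabp4 gave 17.2 to 28.3 FPKM for each 100 of Cd36 with artesunate and 10.7 to 14.3 with vehicle, also with no overlap. Fabp4 for each 100 FPKM of Gpihbp1, a pair known from capillary endothelium, was 385 to 619 with artesunate and 266 to 364 with vehicle. The other ratios taken overlapped between the groups. Cd36 gave 29.9 to 54.2 FPKM for each 100 of Fabp3 with artesunate and 41.6 to 73.5 with vehicle. In the same order, Fabp4 gave 5.17 to 12.5 and 5.85 to 10.0 for each 100 of Fabp3. Slc27a1 gave 1.31 to 2.58 and 1.94 to 3.34 for each 100 of Cd36. No ratios were taken for other gene pairs, so no share of pairs lying apart can be given.

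**Figure D3:**
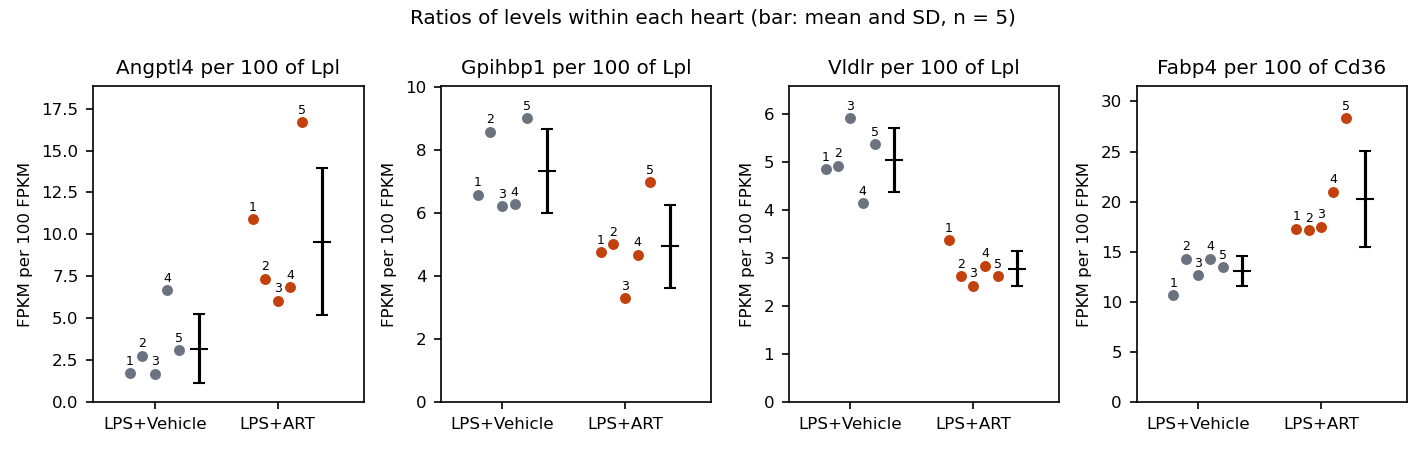
Ratios of FPKM within each heart, as FPKM of the first gene for each 100 FPKM of the second, with replicate numbers at the points and bars for the mean and SD of 5 hearts. The groups overlap for Angptl4 and Gpihbp1 against Lpl, and are apart for Vldlr against Lpl (at most 3.38 in LPS+ART, at least 4.14 in LPS+Vehicle) and for Fabp4 against Cd36.

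In whole hearts, fewer cells of a type and less RNA per cell cannot be told apart. Of 12 endothelial markers, 1 was called higher (Cldn5) and 7 lower, where 52.9% of all genes were called lower. After median-ratio scaling 4 were higher and 5 lower, against 30.1% of all genes in each direction. The sum of the 12 ranged from 224 to 313 FPKM with artesunate and from 260 to 325 with vehicle. The markers differed among themselves: Pecam1 was at 18.6 ± 2.47 FPKM with artesunate against 47.9 ± 7.95 with vehicle (SD, n = 5 each), and Cldn5 at 49.9 ± 24.2 against 11.2 ± 1.92. Cdh5 (57.4 ± 8.81 against 54.6 ± 6.65 FPKM), Tie1 (25.2 ± 3.24 against 23.1 ± 2.07) and Esam (36.4 ± 3.85 against 32.3 ± 1.91) were not called as deposited and were called higher after median-ratio scaling. Of 10 cardiomyocyte markers, 5 were called higher and 2 lower, where 11.8% of all genes were called higher. After that scaling 7 were higher and 1 lower. Each of the 9 genes was also compared with these markers, by taking its log2(FPKM + 1) less the mean of the markers in the same heart. This comparison was made for the 9 genes only, so no share over all genes can be set beside its counts.

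Relative to the cardiomyocyte markers, 5 of the 9 genes were lower in LPS+ART and 0 were higher. These were Slc27a1 (difference -1.05), Vldlr (-0.91), Cd36 (-0.72), Gpihbp1 (-0.67) and Lmf1 (-0.24). Each had an adjusted p of 0.0357 or 0.0408 by a two-sided exact permutation test over all arrangements of 5 against 5 hearts, adjusted over 18 tests. The smallest unadjusted p that this design allows is 0.00794. Angptl4 was at 1.50 on this measure and missed the threshold (exact permutation test, adjusted p = 0.0519). Lpl, Fabp3 and Fabp4 were at -0.10, -0.16 and -0.11 and did not pass it. The 10 cardiomyocyte markers had a median log2 fold change of 0.11, against -0.27 for all genes tested. A gene that moved as the median gene did would thus also be lower on this measure.

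Relative to the endothelial markers, 4 of the 9 genes passed the exact permutation test. Angptl4 was higher (1.92, adjusted p = 0.0408), as was Lmf1 (0.18, adjusted p = 0.0357), while Vldlr (-0.50) and Slc27a1 (-0.63) were lower, both at an adjusted p of 0.0476. Gpihbp1 (-0.25, exact permutation test, adjusted p = 0.0714) and Cd36 (-0.30, adjusted p = 0.0519) did not pass against the endothelial reference, though both did against the cardiomyocyte one. Lpl was at 0.32, Fabp3 at 0.26 and Fabp4 at 0.31, and these 3 did not pass either. The endothelial markers themselves had log2 fold changes from -1.61 (Tek) to 1.95 (Cldn5). A difference from their mean therefore depends on which markers were listed. Lmf1 had opposite signs against the 2 references, and with a pseudocount of 0.1 its difference from the endothelial markers was 0.078 and did not pass. Vldlr and Slc27a1 were lower against both references. With that pseudocount 0 genes passed against the endothelial markers and 3 (Vldlr, Cd36 and Slc27a1) against the cardiomyocyte markers. With LPS+Vehicle replicates 2 and 5 averaged, 0 passed against either reference, with Slc27a1 at -0.72 and -1.10. That design has fewer arrangements and so a coarser exact p, and a count of 0 in it does not show that the differences were gone.

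**Figure D4:**
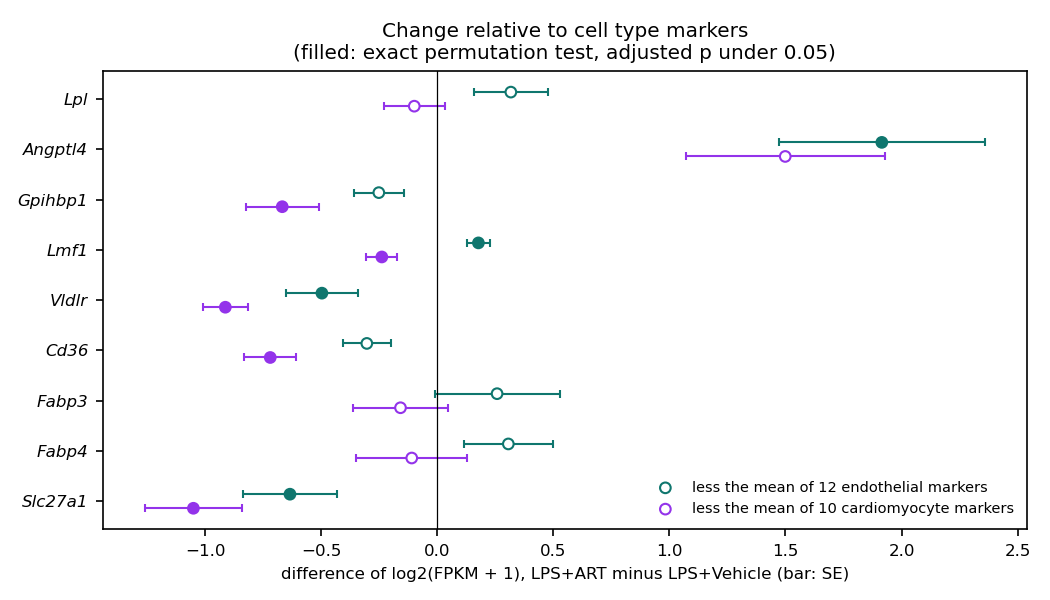
Difference of log2(FPKM + 1), LPS+ART minus LPS+Vehicle, for each of the 9 genes less the mean of 12 endothelial or of 10 cardiomyocyte markers in the same heart. Bars are standard errors and filled points passed the exact permutation test after adjustment over 18 tests. Vldlr and Slc27a1 lie to the left of 0 and are filled for both references.

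Markers of other cell types that a heart can hold were counted as well. All 10 of 10 macrophage markers were called lower (8 after median-ratio scaling), with sums of 50.3 to 91.2 FPKM in artesunate hearts and of 138 to 224 in vehicle hearts. Macrophages are also known to express Cd36 and Fabp4, and their part in the levels of these genes was not tested. Of the fibroblast markers 5 of 8 were lower, and of the pericyte and smooth muscle markers 6 of 7, with 0 higher in either list. Among all genes 52.9% were called lower, and after median-ratio scaling, where 30.1% were, 4 fibroblast markers and 3 pericyte and smooth muscle markers were lower.

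The machinery around the lipase was followed in 21 genes, of which 20 were in the table and 13 passed the filter. Of these 13, 2 rose and 7 fell, where 11.8% of all genes were called higher and 52.9% lower. The median log2 fold change was -0.32 against -0.27 for all genes. After median-ratio scaling 3 were higher and 6 lower, against 30.1% of all genes in each direction. Lipg, which encodes endothelial lipase, an enzyme acting mainly on phospholipids of HDL, rose from 0.465 ± 0.200 FPKM in LPS+Vehicle to 2.62 ± 1.15 in LPS+ART (SD, n = 5 each; log2 fold change 1.26, limma adjusted p = 1.1e-04). Its vehicle mean was below the 0.5 FPKM of the filter, so Lipg entered the test only through its LPS+ART values, and its call is not independent of that. Sdc4, a cell-surface heparan sulfate proteoglycan, rose from 32.4 ± 9.44 to 62.4 ± 7.63 FPKM. Among the genes that fell were Hspg2, the basement membrane proteoglycan perlecan, which fell from 64.3 ± 9.26 FPKM to 20.8 ± 3.91 (log2 fold change -1.58, limma adjusted p = 6.0e-06), and Calr, the chaperone calreticulin, which fell from 118 ± 10.7 to 61.3 ± 7.94. Also lower were Sel1l, a partner of LMF1 in lipase maturation, its paralog Lmf2, P4hb, Canx and Sdc1. Sdc1 was not called after median-ratio scaling (-0.10, limma adjusted p = 0.319). The lipase activator Apoc2 was below the filter, at 0.00739 FPKM or less on average in either group, and so were Apoc1, Apoa5, Angptl8, Lipc and Pcsk5 among others.

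Of 14 other lipoprotein receptors and their regulators, 11 passed the filter, 2 rose and 5 fell, with a median log2 fold change of -0.23. The shares over all genes were 11.8% higher and 52.9% lower. After median-ratio scaling 4 were higher and 3 lower, against 30.1% of all genes in each direction. Mylip, which encodes IDOL, the ubiquitin ligase that marks the VLDL receptor and its relatives for degradation, rose from 11.2 ± 1.01 FPKM in LPS+Vehicle to 19.1 ± 8.01 in LPS+ART (SD, n = 5 each; log2 fold change 0.63, limma adjusted p = 0.0243). Lrp1, a large receptor that clears lipoprotein remnants, fell from 23.0 ± 4.14 to 11.5 ± 1.93 FPKM, and Msr1, a scavenger receptor of macrophages, from 5.76 ± 2.12 to 1.39 ± 0.167.

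Of 21 further genes of fatty acid transport and activation, 12 passed the filter, 1 rose and 5 fell, with a median log2 fold change of -0.28. Among all genes 11.8% were called higher and 52.9% lower. After median-ratio scaling 3 were higher and 4 lower, against 30.1% of all genes in each direction. Acsl4, an acyl-CoA synthetase with a preference for arachidonate, rose from 7.20 ± 0.773 FPKM in LPS+Vehicle to 9.87 ± 1.43 in LPS+ART (SD, n = 5 each; log2 fold change 0.40, limma adjusted p = 0.00443). Cav1, the caveolar coat protein that CD36 is known to depend on at the surface, fell from 88.0 ± 18.8 to 28.9 ± 11.6 FPKM (log2 fold change -1.63, limma adjusted p = 1.3e-04). Its partner Cav2 fell from 25.9 ± 5.01 to 8.28 ± 2.01 FPKM. Slc27a4, Acsl1 and Acsl5 were the other genes called lower as deposited. Acsl1 was at 0.098 after median-ratio scaling and was not called there (limma adjusted p = 0.471). Slc27a6, a transporter of the same family as Slc27a1, was below the filter at 0.0412 FPKM in LPS+ART and 0.0335 in LPS+Vehicle.

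The list with the lowest median held 24 genes that control fatty acid uptake, of which 23 passed the filter. Of these, 2 rose and 17 fell, where 11.8% of all genes were called higher and 52.9% lower. The median log2 fold change was -0.70 against -0.27 for all genes. After median-ratio scaling 5 were higher and 13 lower, against 30.1% of all genes in each direction. Hif1a, the oxygen-regulated transcription factor, rose from 19.5 ± 2.89 FPKM in LPS+Vehicle to 37.8 ± 4.25 in LPS+ART (SD, n = 5 each; log2 fold change 0.93, limma adjusted p = 3.1e-05). Vegfb, a growth factor known to raise endothelial fatty acid transport in mice, rose from 63.8 ± 5.80 to 73.5 ± 2.75 FPKM, while its receptors Flt1 and Nrp1 both fell. Ppargc1a, the coactivator PGC-1α of oxidative metabolism, fell from 13.6 ± 4.46 to 3.51 ± 1.04 FPKM (log2 fold change -1.68, limma adjusted p = 3.7e-05), and Nr1h3, the oxysterol receptor LXRα, from 10.9 ± 1.96 to 2.72 ± 0.621 (-1.68, limma adjusted p = 6.0e-06). Meox2 and Tcf15, a pair of endothelial transcription factors known to maintain Cd36 in heart capillaries of mice, both fell, at 2.23 ± 0.356 against 5.48 ± 1.40 FPKM and 1.05 ± 0.255 against 4.81 ± 1.60. Ppara, a fatty acid receptor and regulator of several of the 9 genes, was called lower as deposited (6.50 ± 2.77 against 9.75 ± 0.503 FPKM, limma adjusted p = 0.0246) and not after median-ratio scaling (limma adjusted p = 0.289). Pparg stood at 6.67 ± 0.709 against 5.81 ± 0.483 FPKM and was called higher only in the scaled values (limma adjusted p = 0.0932 and 5.5e-04).

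**Figure D5:**
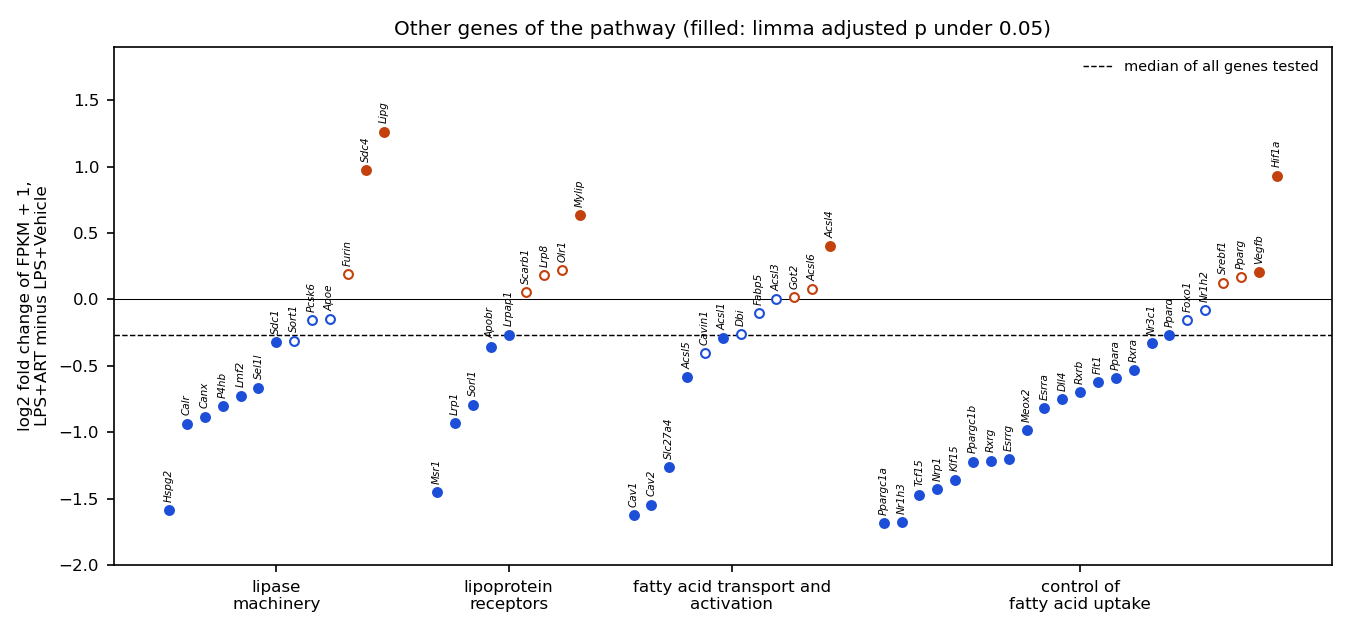
Log2 fold change of FPKM + 1, LPS+ART minus LPS+Vehicle, for tested genes of 4 pathway lists, without those not reported here. Filled points have a limma adjusted p under 0.05, red is above 0 and blue below it, and the dashed line is the median of all genes tested, -0.27. Most genes of the control list lie below that line, with Hif1a highest at 0.93.

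The genes whose levels most resembled 4 of the 9 genes were looked for among 5861 genes averaging 5 FPKM or more, by Pearson's r of log2(FPKM + 1) less its group mean over the 10 libraries. For Lpl these were Aldh2 (r = 0.970), Macrod1 (0.936) and Sord (0.931). Here r stayed at 0.890 or more without the 2 libraries in which Lpl lay farthest from its group mean. For Cd36 they were Agpat2 (0.948), which encodes an acyltransferase of phospholipid and triglyceride synthesis, R3hdm4 (0.922) and Csk (0.916). Agpat2 stood at 9.16 FPKM in LPS+ART and 22.1 in LPS+Vehicle. For Angptl4 they were Rbpms (0.968), Plin2 (0.925), which encodes a lipid droplet coat protein, and Prmt1 (0.915), but without the 2 farthest libraries r was 0.753, 0.627 and 0.531. For Gpihbp1 they were Maz, Fmnl3 and Ccdc97 (0.871 to 0.914), at 0.493 to 0.678 without the 2 farthest. These are descriptions of 10 libraries that share depth and composition within each library. Each partner was picked as among the highest of 5861 genes, so a high r follows in part from that choice. The values without the 2 farthest libraries come from the same libraries that picked the partners and are not independent of them.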

How the data were processed

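Oligo-dT selected RNA of 10 mouse hearts was made into paired-end libraries, per the labels' protocols. These name a NovaSeq and an MGISEQ instrument without tying samples to them. The authors deposited 1 table whose values were judged to be FPKM from the numbers themselves. Of 29538 genes found in GENCODE M21, 29005 (98.2%) came out as whole reads, within 0.01 read, when their M21 exon length was used. Recovered totals were 30684056 to 36679402 reads for an LPS+ART library and 29980900 to 54222272 for a vehicle library. For 1 kb of gene, 3 reads are worth 0.0553 to 0.1001 FPKM, a limit that holds for counting error only. The submitters' processing notes name mm9, with the aligner, counter, annotation and strand setting not given in the sources used here. M21 belongs to a later build, so only chromosomes, and RefSeq's own promoter coordinates, are printed. Mitochondrially encoded genes took 24.7 to 30.2% of the reads of LPS+ART libraries and 21.0 to 23.7% of those of vehicle libraries.

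The main fit was limma-trend (limma 3.58.1, R 4.3.3) on log2(FPKM + 1) for every gene averaging 0.5 FPKM or more, with group as the only term and no scaling between libraries. It called 1565 genes higher and 7037 lower. Fold changes on this scale understate those of low genes, and folds in words are ratios of mean FPKM. On simulated data of 13027 genes the fit called 92% of genes changed 2-fold and 62% of those changed 1.5-fold, with 6 unchanged genes called. Differences relative to marker means used exact permutation tests (scipy 1.17.1). Limma-voom on recovered reads of 12935 genes called 1524 higher and 6849 lower.

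The 9 genes, the 4 pathway lists, the marker lists and the tests were chosen with earlier results of these data known. Text names the 9 genes, up to 2 rises and 2 falls of each pathway list by size among those called and reaching 1 FPKM in the group where they are higher, and 3 genes most like each of Lpl, Angptl4, Gpihbp1 and Cd36. Pdk4, Pecam1, Adipoq, Plin1, Cidea, Cfd, Cldn5, Cdh5, Tie1, Esam, Slc27a6, Meox2, Tcf15, Ppara, Pparg, Flt1, Nrp1 and other list genes named without full statistics were added after their values were seen. Some genes of the lists are counted but not reported here by name. The labels do not say beyond the group sizes that replicates are separate animals, so the p-values describe only how these libraries vary. Same-numbered libraries deviated little together (correlations -0.07 to 0.18), which does not settle whether the numbers pair the samples. Other scalings, pseudocounts, filters, a replicate block and left-out libraries were tried as alternatives. Plots were made in Python 3.11.15 with matplotlib 3.10.9.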

Additional observations from a re-analysis of the deposited data

Results flagged for a closer look

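In 4 of 18 groups of 5 hearts (the 9 genes in each treatment) 1 heart lay far from the others, with a gap to its nearest neighbour above 0.71 of the whole range of its group. Chance flags about 1 in 20 such groups. Lpl in LPS+ART replicate 3 was the highest of its group at 666 FPKM, with a gap of 0.731 of the range. Angptl4 in LPS+Vehicle replicate 4 was the highest of its group at 39.0 FPKM, with a gap of 0.913, and the same heart was the highest vehicle heart in Pdk4 (949 FPKM). Gpihbp1 and Fabp4 in LPS+ART replicate 5 were the highest of their group at 33.6 and 208 FPKM, with gaps of 0.798 and 0.807. That heart also held 88.1 FPKM of summed atrial transcripts, against 0.645 or less in the other LPS+ART hearts, and the part of atrial tissue in the levels of Gpihbp1 and Fabp4 was not tested.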

How the results depend on the processing

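In the limma fits Angptl4 was higher and Vldlr lower, past the threshold, in each alternative run for them, from 1.26 to 2.33 and from -0.94 to -0.43 on the log2 scale. This does not cover the tests relative to markers, whose counts are given below. Median-ratio and trimmed-mean scaling each left 2 genes called lower in place of 4 (Vldlr and Slc27a1), and median-ratio scaling without LPS+Vehicle replicate 4, chosen after seeing the data, gave 3 higher (Angptl4, Lpl and Fabp3) and 1 lower (Vldlr). The genes that were not called changed sign with the scaling. Under median-ratio scaling, trimmed-mean scaling and median-ratio scaling without LPS+Vehicle replicate 4, Lpl was at 0.39, 0.40 and 0.46, Lmf1 at 0.038, 0.041 and 0.011, Fabp3 at 0.33, 0.34 and 0.47, and Fabp4 at 0.38, 0.39 and 0.44. Cyclic loess put Lmf1 at 0.12. Without LPS+ART replicates 3 and 4, Fabp3 and Fabp4 were at 0.086 and 0.057, and relative to the cardiomyocyte markers at 0.034 and 0.0043. Leaving out each library in turn gave -0.095 to 0.054 for Lpl, -0.17 to 0.056 for Fabp3 and -0.21 to 0.092 for Fabp4, and moved none of the 5 called genes across the threshold, while Lmf1 was called without LPS+Vehicle replicate 4. Of the genes relative to markers, 4 (endothelial) and 5 (cardiomyocyte) passed with all 10 libraries. These counts were 0 and 3 with a pseudocount of 0.1, 0 and 0 with LPS+Vehicle replicates 2 and 5 averaged, and 0 and 0 without LPS+ART replicates 3 and 4. Each library left out in turn gave 0 to 3 and 0 to 6, in designs with fewer arrangements and so a coarser exact p. With the replicate number as a block, 1 gene was higher and 4 lower, and over all genes tested 1533 were higher and 6945 lower. Whether the numbers pair the samples is not known. In simulated data a 1.5-fold change was called for 62% of the genes given it. Few genes were changed there, all at levels well above that of Lmf1, so this share does not give the chance of a call in the hearts. That Lpl, Lmf1, Fabp3 and Fabp4 did not pass does not show that they were unchanged.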
